A study of Mus musculus with 9 samples.

Results

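Chemokines are small secreted proteins that direct the movement of leukocytes, and their receptors are G protein-coupled receptors on the cells that respond. The ligands are classed by the spacing of their first cysteines as C, CC, CXC and CX3C, and most inflammatory ligands share receptors, while the homeostatic pairs such as CXCL12 with CXCR4 are more selective. Atypical receptors bind chemokines without G protein signalling and clear, transport or store them. In the ovary, chemokines are known for drawing leukocytes to the follicle at ovulation and to the regressing corpus luteum. The family was taken from the gene table by name, as every gene of the Ccl, Cxcl, Cx3cl and Xcl ligands, the Ccr, Cxcr, Cx3cr and Xcr receptors and the atypical receptors Ackr1 to Ackr4. This gave 61 of the 46078 genes counted, comprising 39 ligands (24 CC, 13 CXC, 1 CX3C and 1 C), 18 receptors and 4 atypical receptors. The rule used names alone and no expression value.

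Whole-ovary RNA of 5 WT and 4 ERβKO mice was sequenced, with 1 library for each animal, all on the C57BL/6J strain and labelled untreated. In ERβKO mice exon 3 of Esr2, the gene of estrogen receptor β, was deleted in every cell through a Rosa26-Cre deleter in an earlier generation, and WT mice were offspring of the same breeding without Cre. Mice were 4 to 20 weeks old over all experiments, and neither an age nor a cycle stage is given for a single ovary. A protocol text shared by all samples describes diets and ligand injections, which the treatment label contradicts. Between 12353740 and 18717510 fragments were counted per library, of which 0.0434% to 0.0548% fell on the 61 members, so most members were measured at low depth. The Esr2 count takes in the exons left in place and had a log2 fold change, ERβKO over WT, of -0.02, so it does not check the genotype labels. Of the other tissue markers, those of macrophages and blood endothelium were present in every ovary. The defining markers Cd3e, Cd3d and Cd8a of T cells, Sele of activated endothelium and Ccr3 of eosinophils were too low to test. Cd3g, Cd4 and Trac of T cells were tested, at log2 fold changes of 0.80, 0.47 and -0.36. WT replicate 2 stood apart from the other WT ovaries in several members, as described with the CC ligands, and results that rest on it are given with and without it.

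The ligand with the highest level in these ovaries was CCL21, which binds CCR7 and guides dendritic cells and lymphocytes into lymphatic vessels and lymph nodes. The mouse genome holds several copies of its gene on chromosome 4, and the coding sequences show how far the deposited values can tell them apart. The coding sequence of Ccl21a (chr4:42773253-42773918, minus strand, GRCm38, GENCODE M21) and those of Ccl21b, Gm10591, Gm13304 and Gm21541 were each 402 bases long. All 4 copies differed from Ccl21a at the same 2 positions, T84A and C194T, counted from 1 at the first base of the start codon and written with the base of Ccl21a first. The longest stretch without a difference was 208 bases. The stretches around both positions are shown from coding base 64 to 104 and from 174 to 214, each across a splice junction, with the differing base in capitals. In the genome the differing bases of Ccl21a lie at 42773747 and 42773543.
Ccl21a, bases 64 to 104: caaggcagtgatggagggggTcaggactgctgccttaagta
Ccl21b, bases 64 to 104: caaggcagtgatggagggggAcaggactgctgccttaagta
Ccl21a, bases 174 to 214: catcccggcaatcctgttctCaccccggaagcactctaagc
Ccl21b, bases 174 to 214: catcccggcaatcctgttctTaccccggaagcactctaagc
The stretches of Gm10591, Gm13304 and Gm21541 were identical to those of Ccl21b.

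The 2 kinds of deposited value handled these copies differently. In the counts, 10077 fragments over the 9 ovaries fell on Ccl21a, 1 fell on Ccl21b and none on Gm10591, Gm13304 or Gm21541. The FPKM values (fragments scaled for gene length and for the depth of the library) were instead spread over the copies, with means in WT ovaries of 56.3 for Ccl21a, 22.3 for Ccl21b, 22.3 for Gm10591, 18.0 for Gm13304 and 17.5 for Gm21541. Values of Ccl21a are therefore uncertain as to which copy was transcribed, and those of Ccl21b are not evidence of expression from that gene. Ccl21c had no count in any library.

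Ccl21a measured 63.3, 81.5, 48.8, 41.5 and 46.4 in the WT ovaries (FPKM, replicates 1 to 5) against 80.2, 82.2, 82.3 and 86.4 in the ERβKO ovaries (replicates 1 to 4). The ERβKO ovaries lay close together, and WT replicate 2 lay among them while the other WT ovaries were lower. The log2 fold change of the counts (log2FC, ERβKO over WT, given throughout with its standard error, SE) was 0.53 ± 0.17, at an FDR of 0.121. FDR stands for the adjusted p (Benjamini-Hochberg) over all 16722 genes tested, and is that of the quasi-likelihood test in edgeR unless DESeq2 is named. Without WT replicate 2 the log2FC of Ccl21a was 0.70 (edgeR FDR 0.0102), and in the libraries numbered below 200, which leave out WT replicates 4 and 5, it was 0.35. When the FPKM of Ccl21a and its 4 copies were summed per ovary, a measure chosen after the data were seen, the sum was 136 ± 34.9 (SD, n = 5) in WT and 197 ± 9.68 (SD, n = 4) in ERβKO ovaries, a ratio of 1.44. The lowest ERβKO sum, 186, exceeded the highest WT sum, 185, by less than 1 FPKM. Because the sum was chosen with these values known, no p-value is given for it. The receptor Ccr7 had at most 13 counts in a library and was not tested, and Ccl19, its other ligand, had at most 7.

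**Figure D1:**
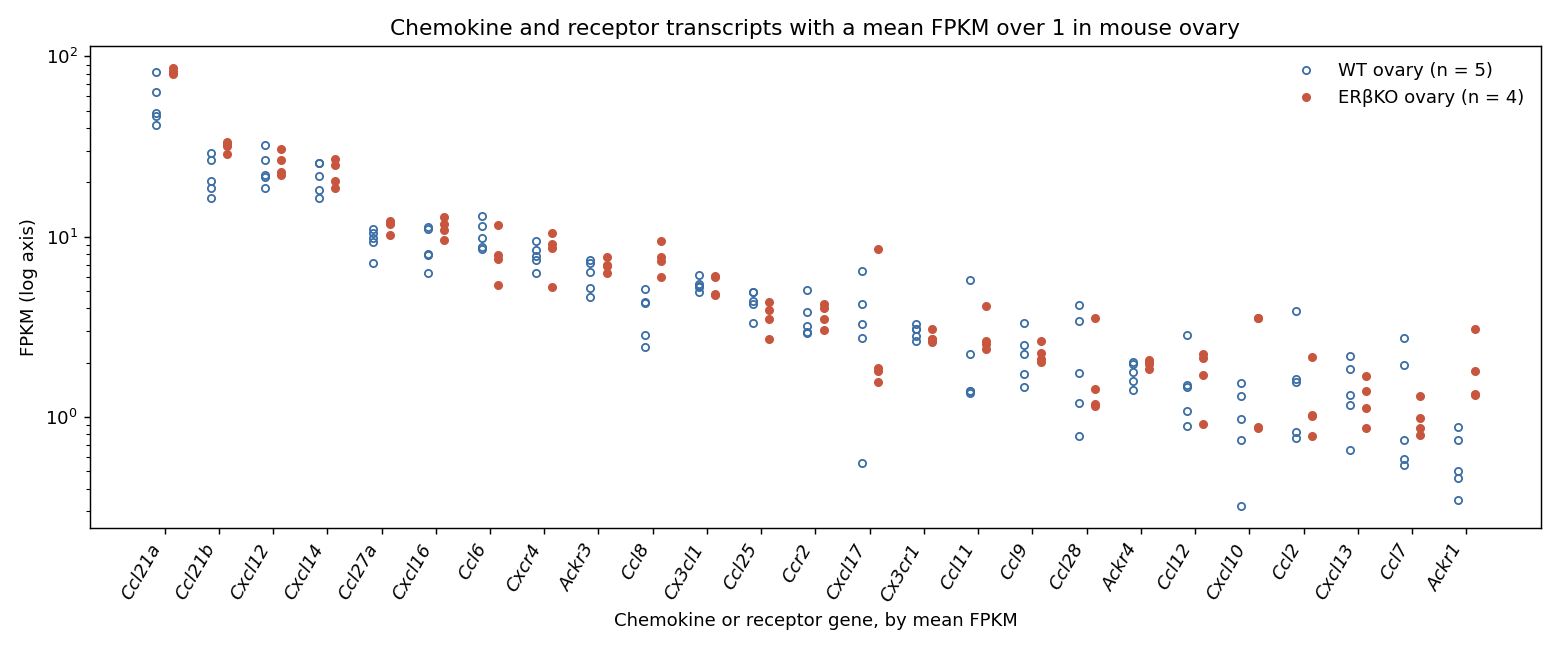
FPKM of 25 members with a mean over 1, on a log axis, ordered by their mean over 9 ovaries; open points are the 5 WT and filled points the 4 ERβKO ovaries. Ccl21a lies highest, Cxcl12 and Cxcl14 lie near 20, and Ccl8 and Ackr1 are the members in which no filled point falls among the open ones.

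After the Ccl21 genes, the highest levels belonged to homeostatic and tissue-resident ligands, and none of them was called by edgeR or DESeq2. Cxcl12, the ligand of CXCR4 that retains stem cells and leukocytes in tissues, had 24.2 ± 5.43 FPKM (SD, n = 5) in WT and 25.5 ± 3.92 (SD, n = 4) in ERβKO ovaries. Cxcl14, a ligand made by epithelia and stroma, had 21.5 ± 4.21 and 22.7 ± 3.80 FPKM. These levels were followed by those of Ccl27a, a skin-homing ligand (9.55 in WT and 11.5 in ERβKO ovaries), Cxcl16, a membrane-bound ligand of CXCR6 (8.92 and 11.3), and Ccl6, a macrophage ligand of rodents (10.3 and 8.09). Neighbours in this order overlapped between ovaries, so that Cxcl12 and Cxcl14 do not differ beyond their spread, nor do Ccl27a, Cxcl16 and Ccl6. Of the whole family, 26 members had a mean over 1 FPKM, and 5 had a mean over 10.

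The question of the design is which members depend on the genotype. In edgeR, 39 of the 61 members passed the filter on low counts, namely 26 ligands, 9 receptors and all 4 atypical receptors. Calls needed an FDR under 0.05, a log2FC beyond 0.4 in either direction and, in WT or ERβKO ovaries, an average over 1 FPKM. With edgeR, 0 of the 39 members were called, where 1.72% of all genes tested were. At an unadjusted p under 0.05 there were 4 members, or 10.3%, against 19.8% of all genes. All 4 were higher in ERβKO ovaries, against 9.81% of all genes that were higher at that level. DESeq2, the tool of the study, called 2 of the 39 members, Ackr1 and Ccl8, against 4.78% of all genes. The same 2 members had FPKM values above every WT ovary in all ERβKO ovaries, as had 4.29% of all genes, and no tested member lay below, where 7.61% of all genes did not overlap in either direction. The share of members set apart by genotype was thus near that of the genome or lower. The median log2FC of the 39 members was 0.14 against 0.00 over all genes, and 24 members were above 0 and 15 below. Without WT replicate 2, edgeR called 3 members (7.69%), Ackr1, Ccl8 and Ccl21a, where 5.51% of all genes in that fit were called.

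**Figure D2:**
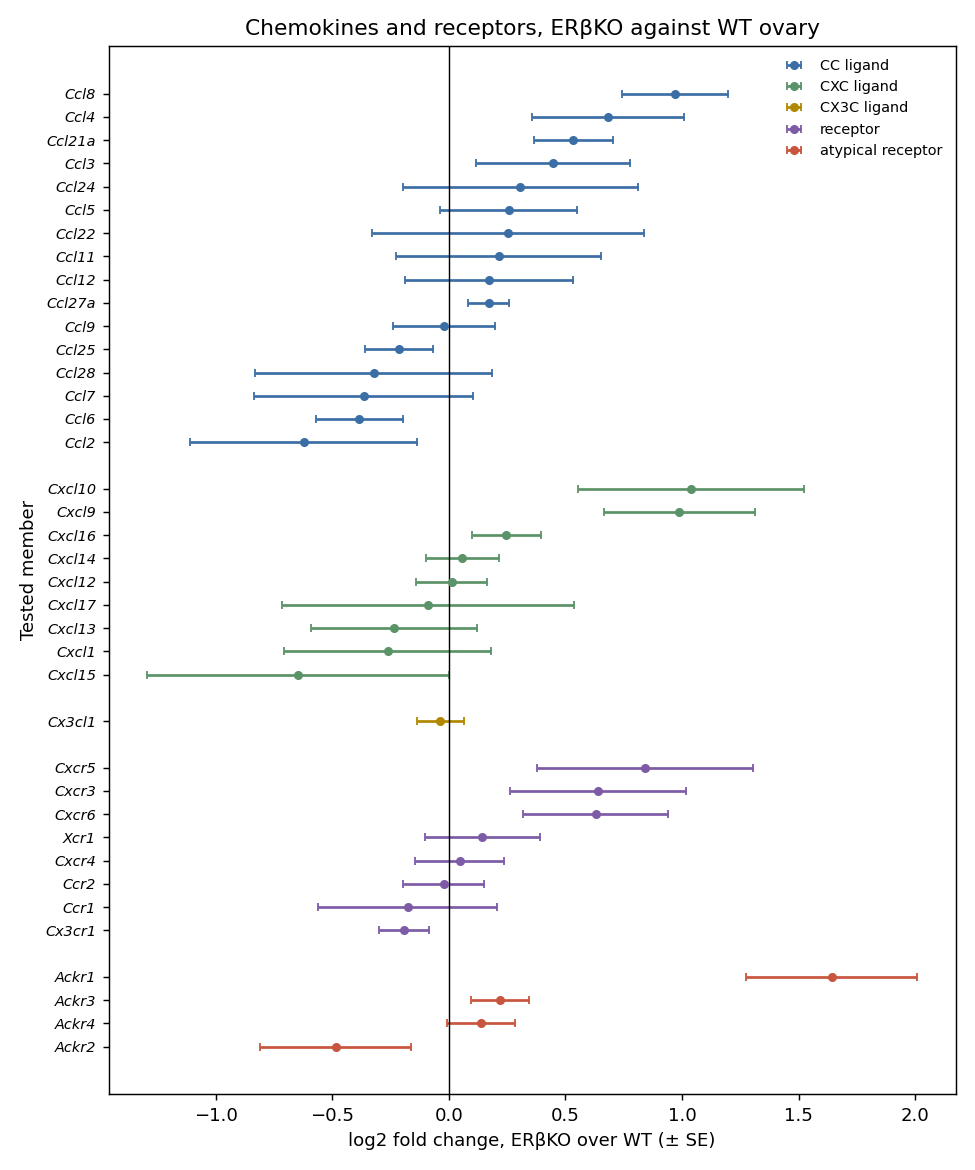
Log2 fold change, ERβKO over WT, with its standard error (bars) for 38 tested members from edgeR, grouped by role. Ackr1 lies farthest from 0 at 1.64, and most other members lie within 1 of 0 with bars that cross or approach it.

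CCL8, also called MCP-2, is a ligand of the monocyte chemoattractant group. Ccl8 (ENSMUSG00000009185, chr11:82115185-82116799, plus strand) measured 2.86, 5.10, 4.33, 4.28 and 2.44 in the WT ovaries (FPKM, replicates 1 to 5) against 7.32, 9.46, 7.66 and 6.00 in the ERβKO ovaries (replicates 1 to 4). No ERβKO ovary overlapped the WT range. Its log2FC was 0.97 ± 0.23 (SE), or 1.96-fold, at an FDR of 0.0562 by edgeR and 0.00291 by DESeq2. Leaving out each ovary in turn gave log2FC of 0.85 to 1.09, and the libraries numbered below 200 gave 0.86. The counts behind it were modest, from 24 in WT replicate 5 to 131 in ERβKO replicate 2. The longest identical stretch that its transcript shares with Ccl2, Ccl7, Ccl11 or Ccl12 was 17 bases, so that its reads can be told from those of its neighbours.

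Ccl8 closes a group of 5 CC ligand genes within 81 kb of chromosome 11 that also holds Ccl2, Ccl7, Ccl11 and Ccl12, and its neighbours did not share its pattern. CCL2, CCL7 and CCL12 attract monocytes through CCR2, and CCL11, or eotaxin, attracts eosinophils through CCR3. Ccl2 measured 1.62, 3.88, 1.56, 0.828 and 0.765 in the WT ovaries (FPKM, replicates 1 to 5) against 1.02, 2.15, 0.784 and 1.01 in the ERβKO ovaries (replicates 1 to 4). Its levels overlapped between the genotypes, and its value in WT replicate 2 was 3.25 times the mean of the other WT ovaries. Ccl11 had 1.39, 5.76, 1.38, 2.23 and 1.36 FPKM in the WT and 2.39, 2.52, 4.11 and 2.63 FPKM in the ERβKO ovaries. Here too WT replicate 2 was the highest of all 9, at 3.62 times the mean of the other WT ovaries. The log2FC were -0.62 ± 0.49 (SE) for Ccl2, -0.37 (0.47) for Ccl7, 0.17 (0.36) for Ccl12 and 0.21 (0.44) for Ccl11. Without WT replicate 2 they were -0.06, 0.05, 0.54 and 0.79, so that a single ovary set both the sign for Ccl7 and much of the size for the others. The edgeR FDR of these 4 ligands without WT replicate 2 was 0.117 or higher.

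WT replicate 2 was high in more of the family than in the genome at large. It was the highest WT ovary in 20 of the 39 tested members, or 51.3%, against 24.2% of all genes tested, and in 10 of the 16 tested CC ligands. No other WT ovary was the highest in more than 6 of the 39 members. The summed FPKM of the 6 leukocyte markers was 59.2 in WT replicate 2, close to 56.8 and 57.6 in WT replicates 1 and 3 and above 39.5 and 41.6 in WT replicates 4 and 5, and it was 44.0 to 69.1 in ERβKO ovaries. The macrophage sum was 349 there and higher in WT replicate 1, at 409. Of the 19 lists of cell-type markers, 9 had their highest WT sum in WT replicate 2, namely those of leukocytes, B cells, dendritic cells, neutrophils, eosinophils, mast cells, venule and lymphatic endothelium, and pericytes and smooth muscle. Such a sum can rest on 1 gene. In WT replicate 2, Acta2 gave 539 of the 955 FPKM of pericytes and smooth muscle, and Ighm 17.5 of the 21.6 FPKM of B cells. Within the pericyte list, Acta2 and Myh11 were highest of the WT ovaries there, but Rgs5 and Notch3 were lowest, at 16.1 and 2.21 FPKM. Csf3r, the only neutrophil marker tested, was highest in WT replicate 3. The luteal sum of WT replicate 2, at 321, was the lowest of the WT ovaries. The part of these cells in the values of WT replicate 2 was not tested. In bulk ovary RNA a smaller number of cells of a type and less RNA per cell cannot be told apart.

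**Figure D3:**
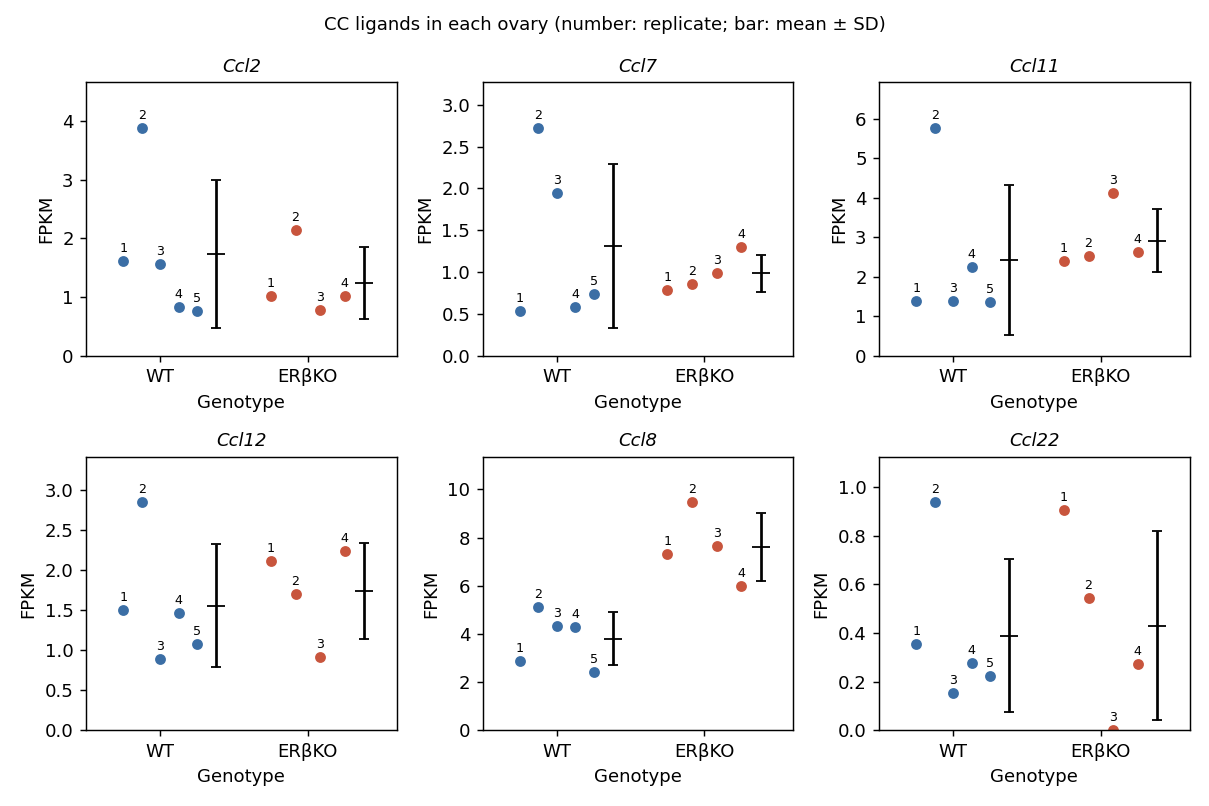
FPKM of 6 CC ligands in each WT and ERβKO ovary, with the replicate number above each point and the mean ± SD as a bar. In Ccl2, Ccl7, Ccl11, Ccl12 and Ccl22 the highest point of all 9 is WT replicate 2, whereas in Ccl8 all 4 ERβKO ovaries lie above it.

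A second group of CC ligands, Ccl5, Ccl9, Ccl6, Ccl3 and Ccl4, lies within 139 kb on the same chromosome and encodes ligands of inflammation. None of these passed the test. Ccl3 and Ccl4, macrophage inflammatory proteins, had log2FC of 0.45 ± 0.33 (SE) and 0.68 (0.33), on at most 29 and 16 counts in a library. Ccl5, or RANTES, had 0.864 ± 0.340 FPKM (SD, n = 5) in WT and 1.05 ± 0.168 (SD, n = 4) in ERβKO ovaries. Ccl6 lay lower in ERβKO ovaries by a log2FC of -0.38 (0.19), with an edgeR FDR of 0.287. The log2FC of Ccl9 was -0.02 (0.22). Of the other tested CC ligands, Ccl28 is described with the ligands of mucosal epithelia. The rest were Ccl22 and Ccl24, both below 1 FPKM, Ccl25, whose receptor CCR9 homes T cells to the gut (4.35 in WT and 3.62 FPKM in ERβKO ovaries), and Ccl27a, with log2FC from -0.21 for Ccl25 to 0.31 for Ccl24.

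CXCL9 and CXCL10 attract activated T and NK cells through CXCR3 and are induced by interferon-γ. Their genes lie side by side on chromosome 5. Cxcl9 (ENSMUSG00000029417, chr5:92321347-92328079, minus strand) measured 0.206, 0.584, 0.425, 0.451 and 0.364 in the WT ovaries (FPKM, replicates 1 to 5) against 0.795, 1.15, 0.545 and 0.689 in the ERβKO ovaries (replicates 1 to 4). ERβKO replicate 3 lay below WT replicate 2, and the other ERβKO ovaries lay above all WT ovaries. Its log2FC was 0.99 ± 0.32 (SE), at an FDR of 0.132 by edgeR and 0.0663 by DESeq2. Without WT replicate 2 it was 1.22 with an edgeR FDR of 0.0469, where 7.23% of all genes had an FDR under 0.05, and Cxcl9 was still not called because it averaged under 1 FPKM in both genotypes. Cxcl10 had 0.320, 1.54, 0.979, 0.744 and 1.31 FPKM in the WT and 3.54, 3.55, 0.867 and 0.879 FPKM in the ERβKO ovaries. Only ERβKO replicates 1 and 2 were above the WT ovaries, and the other two lay among them. The log2FC of Cxcl10 was 1.04 ± 0.48 (SE), at an edgeR FDR of 0.266. Their receptor Cxcr3 had a log2FC of 0.64 (0.38), and Cxcl11, the third ligand, had at most 2 counts in a library. Ifng itself had at most 3 counts in a library and was not tested, and its target Irf1 had a log2FC of 0.31 with an edgeR FDR of 0.152.

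**Figure D4:**
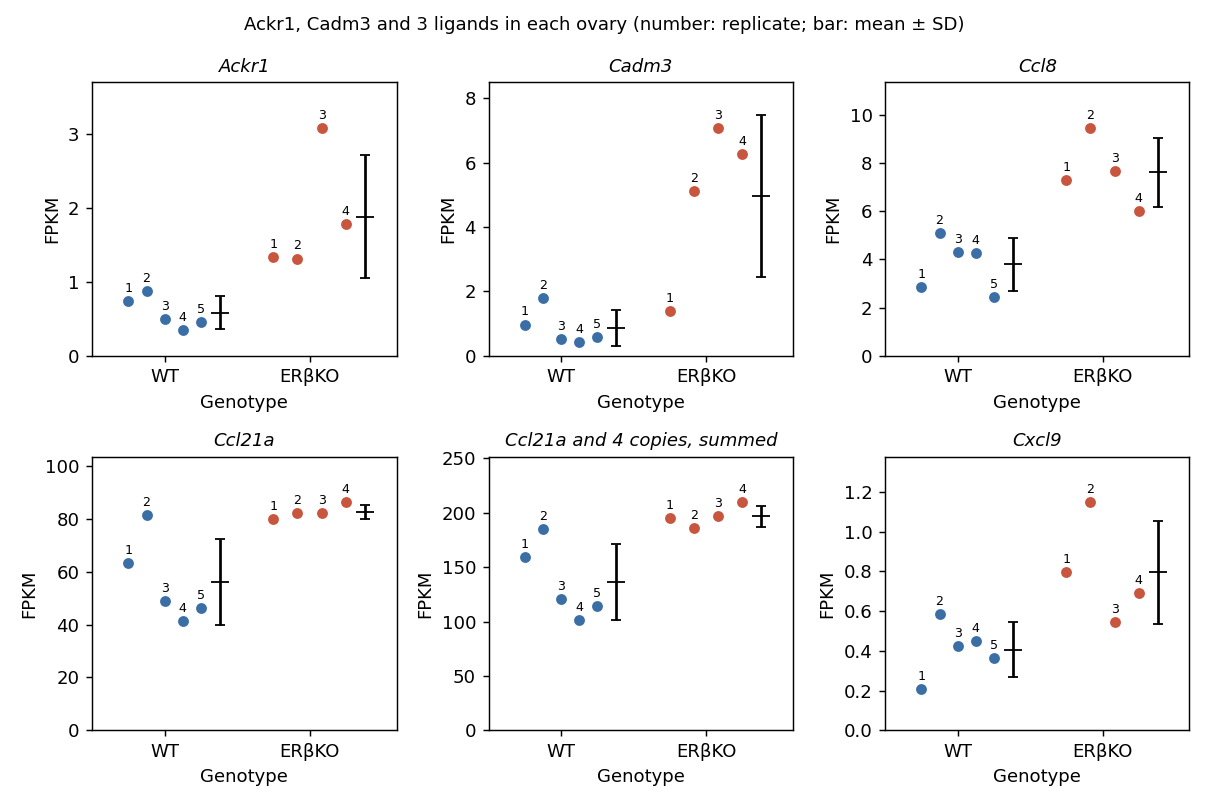
FPKM of Ackr1, Cadm3, Ccl8, Ccl21a, the sum of Ccl21a and its 4 copies, and Cxcl9 in each ovary, with the replicate number above each point and the mean ± SD as a bar. All 4 ERβKO ovaries lie above all 5 WT ovaries for Ackr1, Ccl8 and the summed Ccl21 genes, but not for Cadm3, Ccl21a or Cxcl9.

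The sequences before the starts of Ccl8, Cxcl9 and Cxcl10, the ligands with log2FC near 1, are shown for the 250 bases ahead of the annotated start, 5′ to 3′ on the strand of the gene (RefSeq, GRCm38.p6). They were searched on both strands for the estrogen response element, which is the arm GGTCA followed by any 3 bases and TGACC, for its single arm GGTCA, and for the AP-1 site TGANTCA, the NF-κB site GGGANTTTC, the interferon-stimulated element GAAANNGAA and the GATA site AGATAA. Any full estrogen response element also holds the arm. Matches are in capitals.
Ccl8, chr11:82114935-82115184, plus strand: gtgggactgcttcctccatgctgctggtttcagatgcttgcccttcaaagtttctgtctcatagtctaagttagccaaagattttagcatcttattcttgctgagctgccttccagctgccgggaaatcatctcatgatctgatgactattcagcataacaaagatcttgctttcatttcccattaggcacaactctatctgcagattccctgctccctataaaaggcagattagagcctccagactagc
Cxcl9, chr5:92328080-92328329, minus strand: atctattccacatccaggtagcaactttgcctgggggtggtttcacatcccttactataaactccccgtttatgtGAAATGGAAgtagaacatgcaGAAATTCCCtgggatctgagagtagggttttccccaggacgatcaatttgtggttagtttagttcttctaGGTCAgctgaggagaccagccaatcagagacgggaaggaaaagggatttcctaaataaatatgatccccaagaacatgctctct
Cxcl10, chr5:92348890-92349139, minus strand: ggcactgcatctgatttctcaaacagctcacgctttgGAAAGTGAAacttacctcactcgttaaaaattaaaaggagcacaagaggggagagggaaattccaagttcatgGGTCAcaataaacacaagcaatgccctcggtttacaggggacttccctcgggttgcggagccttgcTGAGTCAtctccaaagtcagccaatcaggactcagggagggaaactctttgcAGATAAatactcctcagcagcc
The window of Ccl8 held none of these letters, that of Cxcl9 held the arm GGTCA, the NF-κB site and the interferon-stimulated element, and that of Cxcl10 held the interferon-stimulated element, the arm, the AP-1 site and the GATA site. Windows were given for 45 of the 61 members, some with several starts, and 28 of their 52 windows (53.8%) held the arm against 35.2% of all 32851 windows. None held the full estrogen response element, which 0.0639% of all windows did. The interferon-stimulated element was in 8 member windows (15.4% against 7.13%). The NF-κB site was in 6, among them those of the neutrophil ligands Cxcl1, Cxcl2 and Cxcl3 (11.5% against 0.941%). The AP-1 site was in 6 (11.5% against 6.75%) and the GATA site in 9 (17.3% against 9.99%). Each search was for the exact letters given, so a window without a match may still hold another form of the site, as for NF-κB in Cxcl10. These matches describe the letters and were not tested as binding sites.

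The neutrophil ligands of chromosome 5 were barely expressed. Cxcl1 averaged 0.781 FPKM in WT and 0.778 in ERβKO ovaries, and Cxcl2, Cxcl3 and Cxcl5 had at most 5, 3 and 12 counts in a library. The receptors Cxcr1 and Cxcr2 of neutrophils had at most 1 and 3 counts. Neutrophil markers were as low, with 1 of 6 tested. Cxcl13, which draws B cells into follicles of lymphoid tissue, had 1.43 and 1.27 FPKM on average in WT and ERβKO ovaries, and its receptor Cxcr5 had a log2FC of 0.84 ± 0.46 (SE) on at most 25 counts. Among B-cell markers, the log2FC were 1.11 for Ighm, 0.00 for Cd79b, -0.22 for Cd79a and -0.24 for Ms4a1, with edgeR FDR of 0.154 or higher. Ighm was 9.95 to 17.5 FPKM in WT ovaries, above all of them in ERβKO replicates 1 to 3 and, at 9.12 FPKM, below all of them in ERβKO replicate 4.

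Ligands of mucosal epithelia varied several-fold between ovaries of the same genotype. Ccl28, a mucosal ligand of CCR10 and CCR3, measured 1.75, 1.20, 0.783, 3.42 and 4.16 in the WT ovaries (FPKM, replicates 1 to 5) against 1.43, 3.53, 1.14 and 1.18 in the ERβKO ovaries (replicates 1 to 4). Its high ovaries were WT replicates 4 and 5 and ERβKO replicate 2. Cxcl17, a mucosal ligand, had 0.556, 4.24, 2.73, 3.27 and 6.45 FPKM in the WT and 1.79, 8.49, 1.86 and 1.56 FPKM in the ERβKO ovaries. Its highest ovary, ERβKO replicate 2, was 15.3-fold above its lowest, WT replicate 1, and the highest WT ovary was again replicate 5. Cxcl15, a ligand of lung and endometrial epithelium, was below 1.2 FPKM in every ovary and was highest in WT replicate 4. The log2FC of these 3 ligands were -0.32 ± 0.51 (SE) for Ccl28, -0.09 (0.62) for Cxcl17 and -0.65 (0.65) for Cxcl15. None of the 3 was larger in size than its SE, so their direction was not resolved. In the libraries numbered below 200, without WT replicates 4 and 5, they were 0.58, 0.39 and 0.21. That of Cxcl17 was also above 0 without ERβKO replicate 1, at 0.14. The summed FPKM of the 8 surface and oviduct epithelium markers was 1438 to 2558 in WT and 1724 to 2117 in ERβKO ovaries. Most of it was Ovgp1, at 1294 to 2359 FPKM in WT and 1483 to 1906 in ERβKO ovaries, so the sum says little of the other markers.

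**Figure D5:**
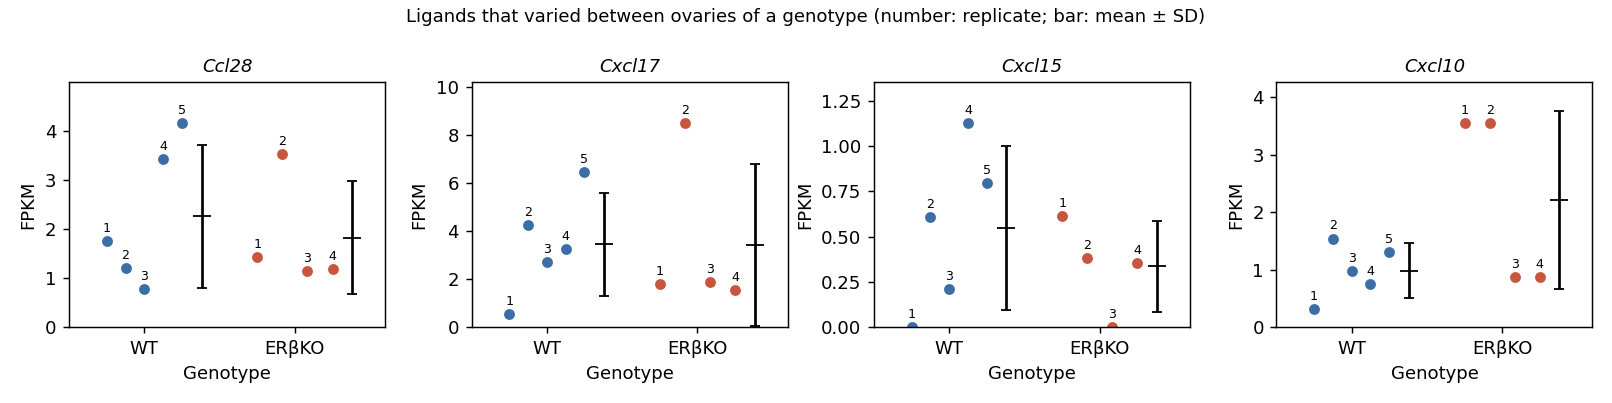
FPKM of Ccl28, Cxcl17, Cxcl15 and Cxcl10 in each ovary, with the replicate number above each point and the mean ± SD as a bar. ERβKO replicate 2 stands above the other ERβKO ovaries for Ccl28 and Cxcl17, and ERβKO replicates 1 and 2 stand above all other ovaries for Cxcl10.

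Of the 18 signalling receptors, 9 were tested, and their log2FC ran from -0.19 to 0.84 with none called. Cxcr4 was the highest at 7.87 ± 1.17 FPKM (SD, n = 5) in WT and 8.36 ± 2.21 (SD, n = 4) in ERβKO ovaries. Ccr2 followed at 3.59 ± 0.887 and 3.69 ± 0.546 FPKM, and Cx3cr1, the receptor of resident macrophages and monocytes, at 2.97 ± 0.258 and 2.78 ± 0.209 FPKM. The ranges of Ccr2 and Cx3cr1 overlapped. Within each ovary Ccr2 lay above Cx3cr1, except in WT replicate 4 (2.92 against 3.07 FPKM), and their order was not tested. Cx3cl1, the membrane-anchored ligand of CX3CR1, had 5.43 ± 0.446 and 5.39 ± 0.711 FPKM, and its log2FC of -0.04 had a standard error of 0.10. Ccr1, a receptor of monocytes and neutrophils, had a log2FC of -0.18 (0.38). Cxcr6, the receptor of CXCL16 on memory T and NKT cells, had 0.592 ± 0.262 and 0.911 ± 0.213 FPKM, with a log2FC of 0.63 (0.31) and an edgeR FDR of 0.293. Xcr1, which marks cross-presenting dendritic cells, had at most 36 counts and a log2FC of 0.14 (0.25). The untested receptors, among them Ccr3, Ccr7 and Ccr9, had at most 13 counts in a library, so a change in them was not detectable at this depth.

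The immune cell markers beside these receptors were not called either. None of the 14 macrophage markers was called by edgeR or DESeq2, 2 had an unadjusted p under 0.05 in edgeR (Cd163 with a log2FC of 0.73 and Lyve1 with 0.63), their median log2FC was 0.07, and their summed FPKM was 220 to 409 in WT and 274 to 435 in ERβKO ovaries. The 6 leukocyte markers had a median of 0.16, with none called by edgeR or DESeq2 and 0 at an unadjusted p under 0.05. The dendritic cell markers had a median of 0.16, the 5 tested T and NK cell markers one of 0.25 and the 5 tested B-cell markers one of 0.00, again with none called by either tool and 1 gene in each list at an unadjusted p under 0.05. The part of immune cell content in the Ccl8 values was not tested.

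ACKR1, the Duffy antigen receptor, binds many CC and CXC ligands and is known on venule endothelium, where it carries chemokines across the vessel wall, and on erythroid cells. Ackr1 (ENSMUSG00000037872, chr1:173331886-173333750, minus strand) measured 0.744, 0.880, 0.499, 0.348 and 0.458 in the WT ovaries (FPKM, replicates 1 to 5) against 1.33, 1.32, 3.09 and 1.79 in the ERβKO ovaries (replicates 1 to 4). No ERβKO ovary overlapped the WT range, and ERβKO replicate 3 was the highest. Its log2FC was 1.64 ± 0.37 (SE), or 3.12-fold, the largest among the 39 members. The edgeR FDR rounded to 0.05 but lay just above that threshold, and the FDR was 0.00294 by DESeq2. Over each ovary left out in turn the log2FC was 1.27 to 1.88, and it was 1.41 in the libraries numbered below 200. The value rests on 8 to 23 counts in a WT library and 33 to 62 in an ERβKO library.

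Part of the Ackr1 gene cannot be separated from its neighbour. Its exons share 361 bases (chr1:173333390-173333750, 25.7% of the exon length) with Cadm3, a cell adhesion gene on the same strand, so that strand does not tell their reads apart, and 21 of those bases code in Ackr1. Cadm3 itself was called, with a log2FC of 2.44 ± 0.51 (SE) and an edgeR FDR of 0.0393. It measured 0.973, 1.81, 0.521, 0.430 and 0.581 in the WT ovaries (FPKM, replicates 1 to 5) against 1.38, 5.11, 7.08 and 6.27 in the ERβKO ovaries (replicates 1 to 4). In ERβKO replicate 1 Cadm3 was below WT replicate 2, while Ackr1 was above every WT ovary. The part of shared reads in the Ackr1 values was not tested.

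Of the markers of venule endothelium, where ACKR1 is found, edgeR called 1 and DESeq2 4 (66.7%) of the 6 tested. The shares over all genes were 1.72% by edgeR and 4.78% by DESeq2, and all the called markers were higher in ERβKO ovaries. The 6 markers, of 7 in the list, had a log2FC above 0, with a median of 0.57, and their summed FPKM was at most 19.8 in WT and 18.5 to 33.8 in ERβKO ovaries, with WT replicate 2 above ERβKO replicate 1. Vcam1, an adhesion molecule for leukocytes that follicular cells also make, was called by edgeR with a log2FC of 1.77 ± 0.38 (SE) and an FDR of 0.0460. Much of the sum was Vcam1, with 17.4, 12.7 and 20.3 of the 32.5, 28.1 and 33.8 FPKM in ERβKO replicates 2 to 4. In WT ovaries Vcam1 was at most 5.87 FPKM. Vwf, which encodes von Willebrand factor, had a log2FC of 0.54 (0.12) and an edgeR FDR of 0.0522. Plvap and Lrg1 had 0.61 and 1.40, with edgeR FDR of 0.112 and 0.124, and DESeq2 called all 4. Selp and Icam1 had 0.38 and 0.11, with edgeR FDR of 0.551 and 0.777. Sele, a defining marker of activated venules, had at most 8 counts. The 8 markers of blood endothelium as a whole had a median log2FC of -0.10, with none called by edgeR or DESeq2 and 1 at an unadjusted p under 0.05. Beside Ccl21a, a product of lymphatic endothelium, the 6 lymphatic markers had a median of 0.16, none was called by edgeR or DESeq2 and 2 had an unadjusted p under 0.05, with Lyve1 at 0.63, Pdpn at 0.32 and Prox1 at -0.33. The part of vessel content in the Ackr1 and Ccl21a values was not tested.

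None of the other atypical receptors was called by edgeR or DESeq2. Ackr3, which scavenges CXCL12, had 6.14 ± 1.22 FPKM (SD, n = 5) in WT and 6.95 ± 0.603 (SD, n = 4) in ERβKO ovaries, with a log2FC of 0.22 ± 0.13 (SE). Ackr4, which clears CCL19, CCL21 and CCL25, had 1.75 ± 0.254 and 1.97 ± 0.0955 FPKM, with a log2FC of 0.14 (0.15). Ackr2, a scavenger of inflammatory CC ligands, was below 1 FPKM in all ovaries, with a log2FC of -0.49 (0.32). Along the CXCL12 axis the log2FC were 0.01 (0.15) for Cxcl12, 0.05 (0.19) for Cxcr4 and 0.22 (0.13) for Ackr3.

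Of 32 genes that carry the signal of chemokine receptors, all were tested and edgeR called 0, while 8 (25%) had an unadjusted p under 0.05, against 19.8% of all genes, 4 of them higher. DESeq2 called 3 (9.38%), against 4.78% of all genes. Pik3cg, the class IB PI3-kinase of leukocytes, had a log2FC of 0.54 ± 0.13 (SE) with an edgeR FDR of 0.0588. Plcb2, the phospholipase C that Gβγ activates in leukocytes, had -1.34 (0.33) with an FDR of 0.0618, and Pik3cd, another leukocyte PI3-kinase, had -0.45 (0.14) with 0.111, both in edgeR. The G protein subunits of the list were not called by either tool, at log2FC of 0.38 for Gnai1, 0.01 for Gnai2, -0.21 for Gnai3, -0.12 for Gnb1 and -0.12 for Gng2. The median over the list was 0.04. Among 18 inducers of inflammatory chemokines 14 were tested, edgeR and DESeq2 called 0, and 4 (28.6%) had an unadjusted p under 0.05, all higher in ERβKO ovaries, against 9.81% of all genes in that direction. Tnf, Il1a and Il6 had at most 14, 14 and 7 counts in a library. Of 9 relatives outside the naming rule 8 were tested and none was called by either tool, with 3 (37.5%) at an unadjusted p under 0.05. Ccrl2, a receptor that presents chemerin, had a log2FC of -1.17 (0.47) and Cmklr1, the signalling receptor of chemerin, one of 0.73 (0.30), with edgeR FDR of 0.202 and 0.216.

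Over 19 lists of cell-type markers, edgeR called 1 gene, Vcam1, in 1 list and none in the other 18. Of all genes tested, edgeR called 1.72%. All 8 adipocyte markers had a log2FC above 0 (median 1.35), with 3 called by DESeq2, and their summed FPKM reached 1560 in an ERβKO ovary against at most 391 in WT. Fat tissue beside the ovary also makes chemokines, and its part in the values was not tested. Leaving out ERβKO replicate 1, the highest in that sum, keeps replicates 2 and 3, which also lay above every WT ovary. Without ERβKO replicate 1 the log2FC were 1.79 for Ackr1, 0.98 for Ccl8, 0.55 for Ccl21a and 0.97 for Cxcl9. That of Cxcl10 became 0.76, that of Ccl22 -0.30 and that of Ccl24 -0.06. Luteal markers had a median of -0.97 with 2 (28.6%) called lower by DESeq2, and granulosa markers one of 0.50 with 2 (28.6%) called higher. The other lists had medians of 0.42 for oocytes, 0.44 for mast cells, 0.24 for surface and oviduct epithelium, 0.03 for theca cells, 0.02 for stroma and -0.29 for pericytes and smooth muscle, of which DESeq2 called 1 gene, in the last. Neutrophil and eosinophil lists had 1 tested gene each, at -0.10 and -0.09.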

How the data were processed

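Whole ovaries of 5 WT and 4 ERβKO mice were measured by RNA-seq of polyadenylated RNA with the strand kept. The authors trimmed the reads with Trim Galore and mapped them to mm10 (GRCm38) with STAR; bcl2fastq 2.20.0.422 is listed in the submitters' processing notes. The deposited counts are the authors' raw FeatureCounts fragment counts per gene, not normalized, and whether strand was used in counting is not given in the sources used here. The deposited FPKM values come from the authors' StringTie run and are scaled for gene length and mapped fragments. The TPM and coverage columns deposited from the same StringTie run were not used for any result.

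Counts were fitted in R 4.3.3 with edgeR 4.0.16 (filterByExpr, TMM, quasi-likelihood test, Benjamini-Hochberg adjustment over 16722 genes), with genotype as the factor. The SE is the size of the log2FC divided by the root of its F statistic. DESeq2 1.42.0, the study's tool, and limma 3.58.1 on log2(FPKM + 1) and log2(FPKM + 0.1) were alternatives, beside other scalings and filters, the replicate block and each ovary left out. The edgeR (each scaling and the block), DESeq2 and limma log2(FPKM + 1) fits were tried on simulated counts with 200 changed genes. The fits recovered 100% of these genes, and 4.76% of edgeR's and 10.3% of DESeq2's calls were false. The simulation gave all genes the same dispersion and changed only genes with higher mean counts, each by the same size of log2FC. Recovery was not measured separately at the counts and log2FC of the members, so the 100% cannot be read as theirs. The shares of false calls likewise hold for the simulated counts and not for these data. Figures were drawn with matplotlib 3.10.9. The 62 rows that matched the family's names held a second row of Ccl27a without counts, which was left out. Of the members, 1 enters the counts over the family but its own values are not reported here. Members, marker lists and tests were chosen with earlier results of these data known. Named genes were members with an edgeR adjusted p under 0.1 or a DESeq2 one under 0.05, those without overlap between genotypes, the 12 highest by FPKM, the partners of known ligand and receptor pairs, and the atypical receptors; Ccl9, Cxcl15, Cxcl17 and, of the other lists, genes with an adjusted p over 0.1 were named after their values were seen. Total counts per library were 12353740 to 18717510. Labels do not tie replicate numbers to shared litters or days, and p-values measure the spread between the sampled ovaries. Coordinates and exon overlaps are from GENCODE M21 and promoter windows from RefSeq, both on GRCm38.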

Additional observations from a re-analysis of the deposited data

Results flagged for a closer look

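Among the 39 tested members, 78 groups of ovaries (WT and ERβKO for each member) were examined for a single ovary far from the others of its genotype by Dixon's test, and 6 such values were found. Chance gives about 1 in 20 groups, or 3.9 here. WT replicate 2 was far above the other WT ovaries for 3 CC ligands. Ccl2 was 3.88 FPKM there against 0.765 to 1.62 in the other WT ovaries, Ccl11 was 5.76 FPKM against 1.36 to 2.23, and Ccl22 was 0.937 FPKM against 0.153 to 0.355. In ERβKO ovaries, replicate 3 was high for Ccl11 at 4.11 FPKM, where the others had 2.39 to 2.63. ERβKO replicate 2 was high for 2 mucosal ligands, with 3.53 FPKM of Ccl28 against 1.14 to 1.43 and 8.49 FPKM of Cxcl17 against 1.56 to 1.86. No explanation of these values was tested.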

How the results depend on the processing

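The count of members called between ERβKO and WT ovaries was 0 with edgeR, 2 with DESeq2, 1 with upper-quartile factors, 1 without a filter on low counts, and 0 to 3 when an ovary was left out, with 3 (Ackr1, Ccl8 and Ccl21a) only without WT replicate 2. With the replicate number as a block (replicate block) it was 0. Correlations of same-numbered ovaries were 0.09, 0.13, -0.04 and -0.01. They were not set beside those of differently numbered ovaries, so they do not decide whether the numbers pair the ovaries. The count of signalling genes called was 0 with edgeR, 3 with DESeq2, 1 without a filter, 0 with the replicate block, and 0 to 2 when an ovary was left out. The count of members at an unadjusted p under 0.05 was 4, and 10 without WT replicate 2, where 25% of all genes reached it. For Ackr1 the adjusted p ran from 0.00294 (DESeq2) to 0.209 over the alternatives, and for Ccl8 from 0.00291 to 0.178, with edgeR, DESeq2 and limma counted. Of 671 fits of 38 tested members under 18 alternatives, 618 kept their direction and side of the threshold, 8 moved past it and 45 changed direction. The 45 belong to 17 members, none of them called, and the cause was not tested. Without WT replicates 4 and 5 (libraries numbered below 200) the log2FC became -0.012 for Ccl12, -0.062 for Ccl22, 0.58 for Ccl28, 0.047 for Cx3cl1, -0.033 for Cxcl14, 0.21 for Cxcl15 and 0.39 for Cxcl17. With the replicate block it became 0.099 for Ccl28, -0.033 for Cxcl14 and 0.14 for Cxcl17. With limma on log2(FPKM + 1) and log2(FPKM + 0.1) it became 0.033 and 0.059 for Ccl9, 0.045 and 0.059 for Ccr2, and 0.026 and 0.20 for Cxcl1, and with 0.1 alone -0.12 for Ccl22 and -0.14 for Cxcr5. When each ovary was left out in turn, the range was -0.018 to 0.79 for Ccl11, -0.30 to 0.87 for Ccl22, -0.062 to 0.66 for Ccl24, -0.82 to 0.043 for Ccl28, -0.57 to 0.050 for Ccl7, -0.14 to 0.16 for Ccl9, -0.50 to 0.11 for Ccr1, -0.098 to 0.14 for Ccr2, -0.090 to 0.018 for Cx3cl1, -0.070 to 0.14 for Cxcl12, -0.037 to 0.15 for Cxcl14, -1.04 to 0.26 for Cxcl17 and -0.10 to 0.21 for Cxcr4.

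Depth limits the account. Of the 61 members, 22 were too low to test, with at most 13 counts in a library, and 12 of the tested ones averaged at most 1 FPKM in both genotypes. FPKM was listed at 0 beside counts above 0 in some library for 5 of the tested members, so levels of Cxcr3, Cxcr5, Xcr1, Cxcl15 and Ccl22 rest on the counts.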
